A study of Rattus norvegicus with 44 samples.

Results

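The genes of the Wnt signalling system were followed through rat ovaries cultured with 1 of 9 growth factors. They were chosen by name from the probe annotation: every probe set with a single symbol that starts with Wnt, Fzd, Dkk, Sfrp or Rspo and a number, together with Frzb, Lrp5, Lrp6, Lgr4, Lgr5, Ror1, Ror2, Axin1, Axin2, Nkd1, Nkd2, Notum, Wif1, Tcf7, Tcf7l1 and Lef1. The rule found 51 genes on 53 of the 27342 probe sets of the array, out of 14324 genes that had a probe set with 1 symbol. Tcf7l1 had 3 probe sets, and the brightest by mean over the 38 arrays of the growth factor set stood for it. The 51 genes are 17 Wnt ligands, 3 R-spondins, 13 receptors and co-receptors, 11 secreted inhibitors, 4 intracellular inhibitors and 3 transcription factors of the TCF and LEF family.

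Whole ovaries were taken from female Sprague-Dawley rats at 4 days of age and kept in organ culture for 48 h, with or without a growth factor at 50 ng/ml. Each RNA sample pooled 2 or 3 ovaries of 1 well from different pups of a litter. Groups of 3 samples received AMH (anti-Müllerian hormone), BMP4, FGF2, FGF7, GDNF, KITLG (Kit ligand), LIF or the PDGFab heterodimer, and 14 samples received none. The AMH, BMP4 and FGF7 proteins were human, KITLG was mouse, and FGF2, GDNF, LIF and PDGFab were rat. A separate set of 6 arrays, preprocessed apart, held 3 samples with human CTGF (connective tissue growth factor) and 3 controls of their own. RNA was hybridised to Affymetrix Rat Gene 1.0 ST arrays, and levels are given as the deposited log2 values. All 8 growth factors of the larger set share the same 14 controls, so their results are not independent of each other.

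Wnt proteins are secreted lipid-modified ligands that bind frizzled receptors together with the co-receptors Lrp5 and Lrp6, which stabilises beta-catenin and lets it act on TCF and LEF factors at target genes. R-spondins, through Lgr4 and Lgr5, keep frizzled receptors at the cell surface, while secreted proteins of the Dkk, Sfrp and Wif families and the enzyme Notum, which removes the lipid, restrain the ligands or their receptors. Axin2, Nkd1, Notum, Lgr5 and Lef1 are themselves known beta-catenin targets and form feedback loops, and in the mouse Wnt4 and Rspo1 are required for normal development of the ovary.

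Some arrays stood apart in their cell markers. Summed linear levels of the oocyte markers (9 of 15 listed genes measured, all 9 above the median of all probe sets in controls) were 2990 in FGF2 sample 1, 5321 in KITLG sample 1, 5779 in LIF sample 1 and 4267 in control 1, and between 6502 and 12235 in the other 34 arrays of the set. The same 4 arrays had surface epithelial sums (9 of 14 genes measured) of 7231, 8912, 7803 and 9847, against 4480 to 8253 in the other 34, and leukocyte sums (9 of 9 measured) of 3146, 3229, 3112 and 2944, against 1335 to 2868. Pregranulosa sums (10 of 11 measured) were 2187, 2951, 2799 and 2372 in these 4 arrays and 2470 to 5297 in the others. Called changes, and others that these arrays moved, are given with and without them. In whole-ovary RNA, fewer cells of a type and less RNA per cell cannot be told apart. Samples of a group were separate wells, but the labels do not tie them to a culture day, so that day could not be entered in the fits, and the p-values measure the spread between these samples. By the study's methods, a culture day held untreated controls and only some of the growth factors. Whether the 4 arrays above share a day or litter is not given, and a shared day cannot be told apart from their markers.

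In the control ovaries, 29 of the 51 genes had a mean level above the median of all probe sets (5.98 on the log2 scale). These were 12 of the 13 receptors and co-receptors, all 4 intracellular inhibitors, all 3 TCF and LEF factors, 2 of the 3 R-spondins, 4 of the 11 secreted inhibitors and 4 of the 17 Wnt ligands. Ligand levels ran between 3.99 ± 0.14 (SD, n = 14) for Wnt10b and 7.83 ± 0.24 for Wnt4, and receptor levels between 5.81 ± 0.14 for Fzd9 and 10.54 ± 0.16 for Lgr4, the R-spondin receptor. R-spondin levels ran between 5.34 ± 0.37 for Rspo3 and 9.68 ± 0.29 for Rspo2. Secreted inhibitors lay between Dkk1, at 4.33 ± 0.20, and Dkk3, at 8.29 ± 0.26. The intracellular inhibitors lay between 6.74 ± 0.24 for Nkd2 and 8.72 ± 0.29 for Nkd1, and the transcription factors between 7.60 ± 0.27 for Tcf7 and 8.85 ± 0.29 for Lef1. Probe sets of different genes differ in brightness for reasons of design, so these ranges do not order the genes by amount of mRNA.

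The spread between control samples was uneven among the genes. The SD over the 14 controls had a median of 0.24 over the 51 genes, against 0.20 over all probe sets. It was 0.08 for Wnt16, 0.10 for Wnt1 and 0.12 for Lrp6, and it reached 0.52 for Lgr5, 0.62 for Sfrp2, 0.68 for Wnt2b and 0.74 for Wnt5a. These were picked as the ends of the range after their values were seen.

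Across the 9 comparisons, 3 of 459 tests of a gene against its controls passed limma's test at an adjusted p of 0.05 over all probe sets. The share of all probe sets that passed ran from 0% with AMH and CTGF to 1.89% with GDNF. Wnt4 rose with LIF, Wif1 rose with GDNF and Nkd2 rose with FGF2. The study's own criteria were also applied: an unadjusted p no higher than 0.05, here from limma, a linear mean at least 1.2 times or no more than 0.83 times the control mean, and a gap between the linear means of 10 units or more. They were met 21 times by 16 genes, and 35 genes met them in no comparison. That was 4.58% of the 459 tests, near the 4.21% of the tests of all probe sets. In each of the 9 comparisons more probe sets met them here than the study lists as altered (1856 with FGF2, for example). The counts given here are therefore not counts of the study's own lists, and why they differ was not tested. The study reports a correction for culture date, RNA processing and array date in its network analysis, without a major effect. No such correction was made here.

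FGF2 had the most genes at the study criteria, 6 of 51 (11.8%), against 6.79% of all probe sets, and 1 of 51 called at the adjusted threshold, against 0.94% of all. With the share of all probe sets given as the background, LIF had 4 of 51 at the study criteria (7.84%, background 3.82%), all higher than controls, with 1 called (background 0.267%). GDNF had 3 of 51 (5.88%, background 5.99%) with 1 called (background 1.89%). PDGFab had 3 of 51 (5.88%, background 5.33%) with 0 called (background 0.234%), FGF7 had 2 of 51 (3.92%, background 4.16%) with 0 called (background 0.0805%), and AMH (background 2.15%), BMP4 (background 4.48%) and KITLG (background 4.44%) had 1 of 51 each (1.96%). No member was called in these last 3 comparisons, where 0%, 0.274% and 0.0439% of all probe sets were called. CTGF had 0 of 51 by either rule, against 0.761% of all probe sets at the study criteria and 0% at the adjusted threshold. In the comparisons with 0 called by limma, the number of the 51 genes with an unadjusted p under 0.05 was 3 for AMH, 2 for BMP4, 2 for FGF7, 3 for KITLG, 4 for PDGFab and 0 for CTGF, and the methods' t-test with Benjamini-Hochberg adjustment called 0 in all 9 comparisons. Most shares were near the background, and the median change of the 51 genes lay between -0.04 with AMH and 0.05 with KITLG.

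**Figure D1:**
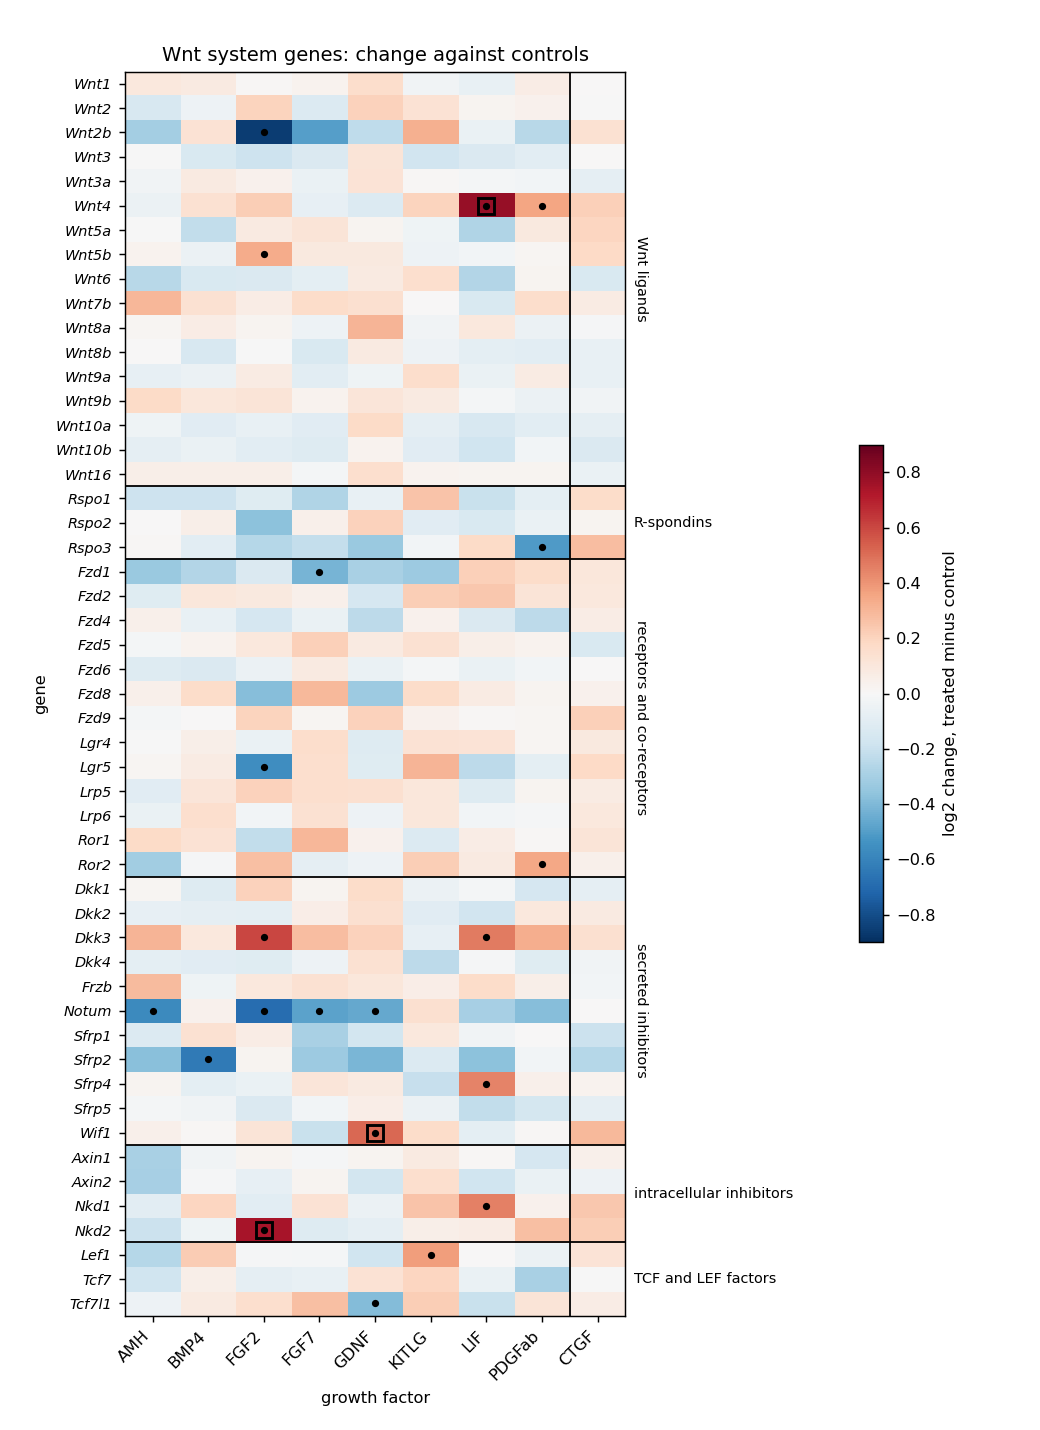
Log2 change of each of the 51 genes (rows, by role) with each of the 9 growth factors (columns), treated minus the controls of its set; squares mark the 3 changes past the adjusted threshold and dots the 21 that met the study criteria. Strong colours were few and scattered, and Notum was the single row with 4 dots.

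Among the ligands, Wnt4 rose with LIF. Its log2 levels were 9.07, 8.66 and 8.12 in LIF ovaries, while the 14 controls had a lowest level of 7.34, a median of 7.86 and a highest of 8.30. LIF samples 1 and 2 were above every control and sample 3 lay within the control range. The change was 0.79 (SE 0.16, limma adjusted p = 0.0156, exact permutation p = 0.00294), a ratio of linear means of 1.76. LIF sample 1 and control 1, the highest sample of each group, are 2 of the 4 arrays low in oocyte markers. FGF2 sample 1 and KITLG sample 1, the other 2, were also the highest of their groups in Wnt4, at 8.45 and 8.31. With LIF the oocyte sums were 5779 to 9940 (controls 4267 to 11242), the surface epithelial sums 4627 to 7803 (controls 4600 to 9847) and the pregranulosa sums 2799 to 5099 (controls 2372 to 5261), no marker on these lists was called, and their part in the change of Wnt4 was not tested. Without these 4 arrays the change was 0.59 (limma adjusted p = 0.244), and without LIF sample 1 alone it was 0.56 (adjusted p = 0.795). Leaving out LIF sample 2 gave 0.77 (adjusted p = 0.142). The change with LIF differed from that with GDNF by 0.91 (SE 0.21, adjusted p = 0.0147), while the differences from the other 6 growth factors, 0.43 to 0.86, did not pass.

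Wnt4 also met the study criteria with PDGFab. It had 8.27, 8.08 and 8.21 in PDGFab ovaries, all 3 above the control median of 7.86 and below the highest control, for a change of 0.35 (SE 0.16, 95% interval 0.03 to 0.68, limma adjusted p = 0.453). With the other growth factors of that set the Wnt4 change lay between -0.13 for GDNF and 0.22 for FGF2. In the CTGF set it had 8.17, 8.15 and 8.22 in CTGF ovaries, all above the 7.77, 8.06 and 8.06 of their controls (0.22, SE 0.10, adjusted p = 1, exact permutation p = 0.1, the smallest that 3 against 3 can give).

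Wnt2b, a ligand of the beta-catenin branch, varied widely with no treatment at all, between 6.50 and 9.24 in the controls with a median of 7.65. In FGF2 ovaries it had 7.34, 6.80 and 6.06. All 3 were below the control median and 1 was below the lowest control. The change of -0.85 (SE 0.38, 95% interval -1.64 to -0.07, limma adjusted p = 0.35, exact permutation p = 0.0824) met the study criteria and not the adjusted threshold, and it was -1.03 without the 4 arrays low in oocyte markers (adjusted p = 0.271) and -0.52 without FGF2 sample 3 (adjusted p = 0.723). The highest control was control 1, and the arrays low in oocyte markers were also the highest of their groups in Wnt2b with FGF2 (7.34), KITLG (8.80) and LIF (8.51). Wnt2b changes with the other growth factors of the set lay between -0.50 for FGF7 and 0.32 for KITLG, and none met the criteria. The study lists Wnt2b below its controls with AMH as well as with FGF2. Here the AMH change was -0.31 (SE 0.38, limma unadjusted p = 0.432), and why this differs from the study's list was not tested.

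Wnt5b met the study criteria with FGF2, at 6.92, 6.15 and 6.25 in FGF2 ovaries against 5.87 to 6.32 in controls, and was named after its values were seen because the ligands at the criteria were so few. FGF2 sample 1 was far above the others and above every control. The change was 0.33 (SE 0.11, limma adjusted p = 0.15), and 0.10 without the 4 arrays low in oocyte markers (adjusted p = 0.83). The other 14 ligands met the criteria in no comparison. Of these, Wnt8a with GDNF came closest to the adjusted threshold (named after its values were seen), at 4.50, 4.25 and 4.42 in GDNF ovaries against 3.94 to 4.48 (median 4.01) in controls, a change of 0.31 (SE 0.09, limma adjusted p = 0.0529) in the dimmest range of the array. With GDNF, 14 of the 17 ligands had a positive change, with a median of 0.11, but dim probe sets moved the same way over the whole array: 76.6% of all probe sets below the median level had a positive change with GDNF (median 0.09), against 41.4% of those above it (median -0.04), and 13 of the 17 ligands are below that level.

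**Figure D2:**
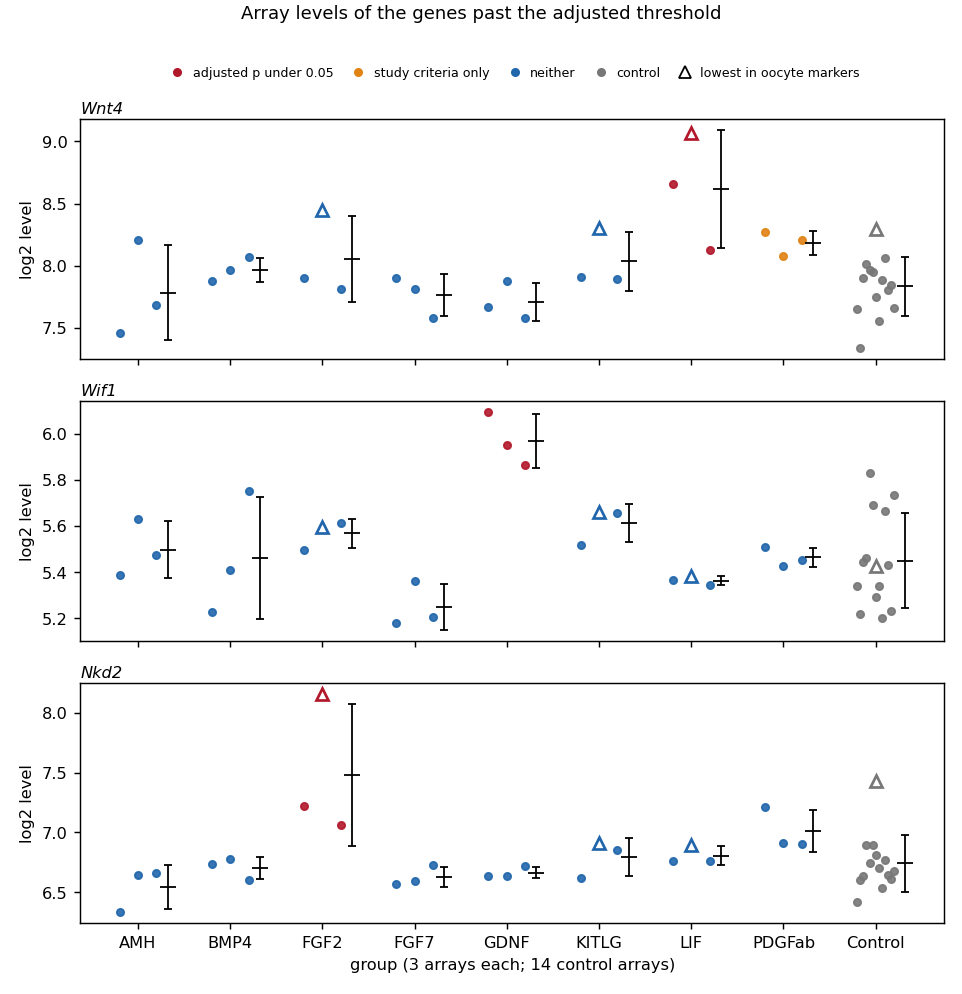
Log2 level of Wnt4, Wif1 and Nkd2 on each array of the 8 growth factor groups (3 arrays each) and of the 14 controls; bars give the mean and SD, triangles the 4 arrays lowest in oocyte markers. The 3 GDNF arrays lie above all controls for Wif1, while for Wnt4 with LIF and Nkd2 with FGF2 a triangle is the highest array.

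R-spondins and receptors gave no call. Rspo3, an R-spondin that binds Lgr4 and Lgr5, had 4.69, 5.02 and 4.78 in PDGFab ovaries and between 4.87 and 6.04 (median 5.23) in controls. PDGFab samples 1 and 3 were below every control, and the change of -0.51 (SE 0.20, limma adjusted p = 0.336, exact permutation p = 0.0353) met the study criteria. PDGFab sample 1 also had the lowest oocyte sum (6502) and the highest stromal sum (22594) of the 34 arrays outside the 4 named above, and the part of these markers was not tested. Rspo1 and Rspo2 met the criteria in none of the 9 comparisons.

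Lgr5, an R-spondin receptor and a beta-catenin target, had 5.99, 6.31 and 5.83 in FGF2 ovaries, against 5.90 to 7.43 (median 6.53) in controls. All 3 FGF2 samples were below the control median, yet the control range reached almost as low. The change was -0.56 (SE 0.25, limma adjusted p = 0.353, exact permutation p = 0.0926), and -0.54 without the 4 arrays low in oocyte markers. Ror2, a receptor tyrosine kinase for Wnt5a, had 7.74, 7.25 and 7.32 in PDGFab ovaries and 6.85 to 7.71 (median 7.04) in controls, a change of 0.35 (SE 0.17, limma adjusted p = 0.502). PDGFab sample 1, the array with the highest stromal sum, was above every control and the other 2 lay within the range. Without that sample the change was 0.20 (adjusted p = 0.914). The study lists Ror2 below its controls with AMH. Here Ror2 had 6.66, 6.90 and 6.76 in AMH ovaries, with samples 1 and 3 below every control. That change was -0.31 (SE 0.17, limma unadjusted p = 0.0732, exact permutation p = 0.0397) and did not meet the study criteria. Fzd1, a frizzled receptor, had 7.57, 7.45 and 7.53 in FGF7 ovaries, close to each other and below the control median of 7.96, but inside the control range of 7.29 to 8.53 (change -0.42, SE 0.20, limma adjusted p = 0.638). The other 10 receptors and co-receptors, Lrp5, Lrp6 and Lgr4 among them, met the criteria nowhere. Lrp6 changes lay between -0.06 with AMH and 0.15 with BMP4.

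Secreted inhibitors held the most changes at the study criteria, 9 of 99 tests in 5 genes (9.09%), with 1 called. Over the same 9 comparisons 4.21% of the tests of all probe sets met them, and 4 of the 9 were tests of Notum against the same controls. Wif1, which binds Wnt ligands outside the cell, rose with GDNF. It had 6.09, 5.95 and 5.86 in GDNF ovaries, and its lowest, median and highest control levels were 5.20, 5.43 and 5.83. All 3 GDNF samples were above every control. The change was 0.52 (SE 0.10, 95% interval 0.31 to 0.73, limma adjusted p = 0.0102), with an exact permutation p of 0.00147, the smallest that 3 against 14 can give. It was 0.52 without the 4 arrays low in oocyte markers (adjusted p = 0.0189), 0.46 without GDNF sample 1 (adjusted p = 0.113) and 0.53 without sample 2 (adjusted p = 0.0511). In controls the probe set is dimmer than the median one (5.45 ± 0.20, against 5.98), the part of the array in which 76.6% of probe sets had a positive change with GDNF.

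The Wif1 change with GDNF was larger than with 4 other growth factors by limma's test of the difference. These were FGF7 (difference 0.72, adjusted p = 0.011), LIF (0.61, adjusted p = 0.014), PDGFab (0.51, adjusted p = 0.0388) and BMP4 (0.51, adjusted p = 0.04). The differences from AMH (0.47), FGF2 (0.40) and KITLG (0.36) did not pass, with adjusted p = 0.0779, 0.0883 and 0.138. In the CTGF set Wif1 had 6.16, 6.79 and 6.53 in CTGF ovaries and 6.02, 6.20 and 6.38 in their controls, and it is taken up again with that set.

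Dkk3, a member of the Dickkopf family that is not a classical inhibitor of Lrp6, had the lowest adjusted p among the changes that met the study criteria and were not called. Its levels were 8.88, 8.77 and 9.01 in FGF2 ovaries, against 7.89 to 8.84 (median 8.25) in controls. FGF2 samples 1 and 3 were above every control and sample 2 was close below the highest. The change was 0.60 (SE 0.16, limma adjusted p = 0.0616, exact permutation p = 0.00294), and 0.59 without the 4 arrays low in oocyte markers (adjusted p = 0.266). In LIF ovaries Dkk3 had 9.06, 8.34 and 8.86, with samples 1 and 3 above every control, for a change of 0.47 (SE 0.16, limma adjusted p = 0.365), which was 0.30 without the 4 arrays (adjusted p = 0.999).

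Notum was below its controls at the study criteria with 4 growth factors, and passed the adjusted threshold with none of them in the fit without array weights. It had 5.97, 6.31 and 5.99 with AMH, 6.14, 5.78 and 6.01 with FGF2, 6.24, 6.56 and 5.73 with FGF7, and 6.10, 6.23 and 6.27 with GDNF, while the controls had a lowest level of 5.996, a median of 6.71 and a highest of 7.22. Every one of these 12 samples was below the control median and 4 were below the lowest control. The changes were -0.57, -0.69, -0.49 and -0.46 (SE 0.22 each) with limma adjusted p = 0.946, 0.146, 0.632 and 0.286. With FGF7 the change was -0.26 without FGF7 sample 3. With array weights the adjusted threshold was passed with FGF2 (-0.82, adjusted p = 0.0437), FGF7 (-0.62, adjusted p = 0.022) and GDNF (-0.56, adjusted p = 0.0289), and not with AMH. The 4 comparisons share their controls, among which controls 2, 12 and 14 had Notum at 6.01, 5.996 and 6.15 and the other 11 were between 6.43 and 7.22. With LIF and PDGFab the Notum change was -0.30 and -0.39, and with BMP4, KITLG and CTGF it was 0.04, 0.14 and 0.00.

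Sfrp2, a secreted frizzled-related protein, had 7.19, 6.87 and 7.13 in BMP4 ovaries and 7.14 to 9.18 (median 7.46) in controls, a change of -0.64 (SE 0.31, limma adjusted p = 0.554). BMP4 samples 2 and 3 were below every control. Sfrp4, of the same family, had 5.14, 4.91 and 5.75 in LIF ovaries, against 4.51 to 5.21 (median 4.74), a change of 0.44 (SE 0.14, limma adjusted p = 0.305) in which LIF sample 3 alone was above every control, and which was 0.20 without that sample. Sfrp1, Sfrp5, Frzb, Dkk1, Dkk2 and Dkk4 met the criteria in no comparison.

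**Figure D3:**
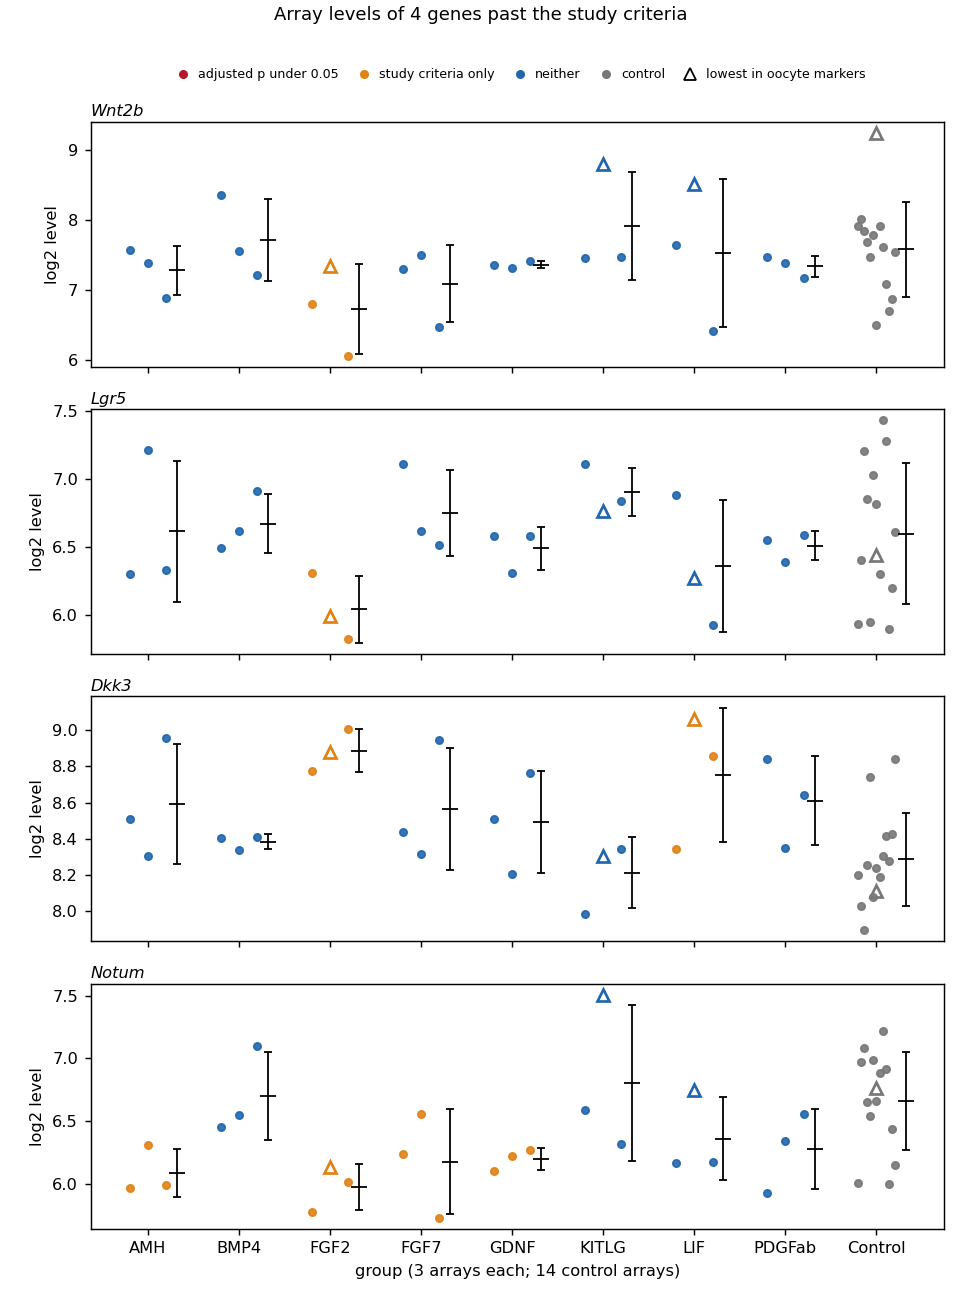
Log2 level of Wnt2b, Lgr5, Dkk3 and Notum on each array of the 8 growth factor groups (3 arrays each) and of the 14 controls; bars give the mean and SD, orange points the groups that met the study criteria, triangles the 4 arrays lowest in oocyte markers. Notum and Lgr5 samples with FGF2 lie in the lower part of the control range or under it, and control 1 is the highest Wnt2b array.

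Of the intracellular inhibitors, Nkd2 rose with FGF2. Nkd2 is a naked cuticle protein that binds Dishevelled. It had 8.16, 7.22 and 7.07 in FGF2 ovaries, and its lowest, median and highest control levels were 6.42, 6.69 and 7.43. FGF2 sample 1 was above every control, and samples 2 and 3 were below control 1 and above the other 13. The change was 0.74 (SE 0.15, limma adjusted p = 0.00748, exact permutation p = 0.00735), a ratio of linear means of 1.75. FGF2 sample 1 and control 1 are again 2 of the 4 arrays low in oocyte markers. Without the 4 arrays the change was 0.45 (SE 0.10, adjusted p = 0.0641), and without FGF2 sample 1 alone it was 0.40 (adjusted p = 0.336). The change with FGF2 was larger than with GDNF (difference 0.82, SE 0.19, adjusted p = 0.0166), and differences of 0.47 to 0.93 from the other 6 growth factors did not pass, the nearest being AMH (adjusted p = 0.0503). The study's list for FGF2, made from these same arrays, does not hold the probe set of Nkd2. It holds Dkk3 as higher and Wnt2b, Lgr5 and Notum as lower, the directions found here.

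Some cell markers moved with FGF2 as well, in both directions within a list. Of the surface epithelial markers, 1 of 9 rose (Upk1b, a uroplakin, change 1.24, limma adjusted p = 0.026) while the median change of the 9 was -0.09, with sums of 4960 to 7231 in FGF2 ovaries and 4600 to 9847 in controls. Of the stromal markers, 1 of 10 rose (Pdgfrb, change 0.59, limma adjusted p = 0.0427) and the median change was 0.17, with sums of 14977 to 19723 in FGF2 ovaries and 12075 to 17005 in controls. At the study criteria 3 stromal markers were higher and 1 was lower, Lum, a proteoglycan (change -1.10, limma adjusted p = 0.0661). Oocyte sums were 2990 to 12235 with FGF2 and 4267 to 11242 in controls, with 0 of 9 markers called. The part of these cell markers in the change of Nkd2 was not tested.

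Nkd1, the second naked cuticle protein, had 9.44, 9.11 and 8.98 in LIF ovaries and 8.18 to 9.09 (median 8.83) in controls, and is named after its values were seen. LIF samples 1 and 2 were above every control. The change of 0.45 (SE 0.16, limma adjusted p = 0.398) met the study criteria, and was 0.34 without the 4 arrays low in oocyte markers. Axin2, the scaffold protein often used as a readout of beta-catenin activity, met the criteria with none of the growth factors. Its changes lay between -0.30 with AMH (6.56, 7.09 and 7.23 in AMH ovaries, against 6.62 to 7.93, median 7.28, in controls) and 0.15 with KITLG (7.38, 7.44 and 7.41). AMH sample 1 was also low in Axin1 (7.27, against 8.26 and 8.18 in samples 2 and 3). In deviations from the group means over all probe sets it resembled control 2 most (r = 0.779). The part of this array in the Axin2 change was not tested. Each of the 8 Axin2 changes in the larger set had an SE of 0.16, and over them the 95% intervals reached from -0.63 to 0.48. With CTGF the Axin2 change was -0.04 (95% interval -0.53 to 0.44).

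Lef1 and Tcf7l1 were the transcription factors at the study criteria. Lef1, an activator with beta-catenin, had 9.38, 9.36 and 8.95 in KITLG ovaries and 8.23 to 9.25 (median 8.90) in controls, with samples 1 and 2 above every control (change 0.38, SE 0.15, limma adjusted p = 0.433, and 0.33 without the 4 arrays low in oocyte markers). Tcf7l1, which acts mostly as a repressor, had 7.34, 7.58 and 7.20 in GDNF ovaries and 7.27 to 8.48 (median 7.79) in controls, with GDNF sample 3 below every control (change -0.39, SE 0.15, limma adjusted p = 0.152). Tcf7 met the criteria nowhere.

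**Figure D4:**
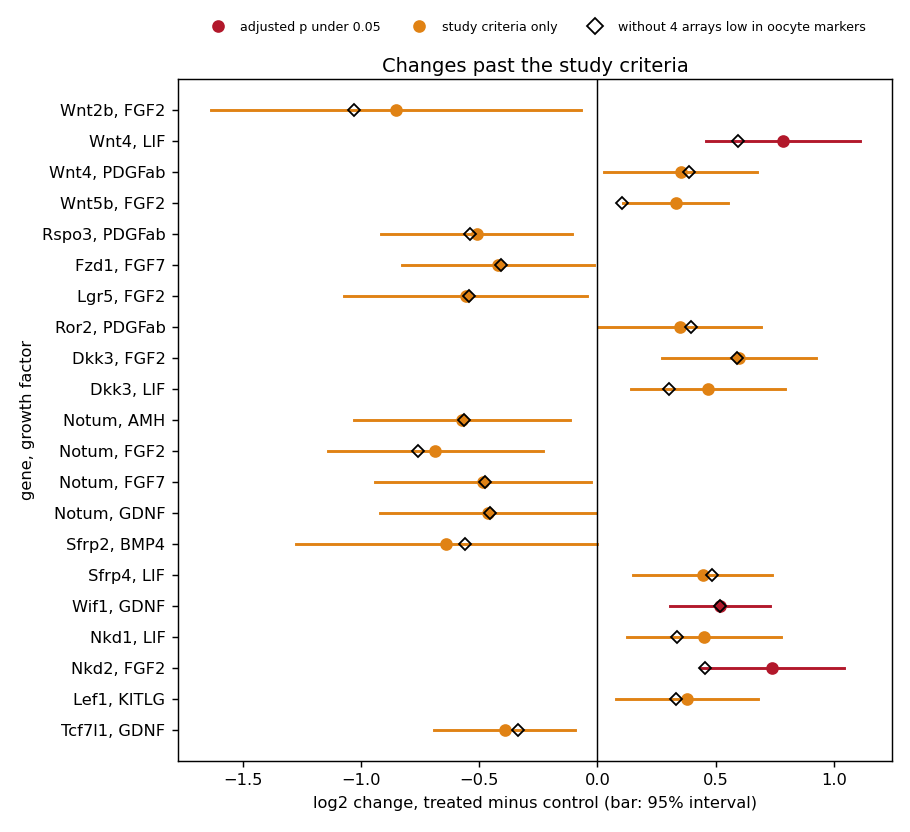
Log2 change (treated minus control) with its 95% interval for the 21 changes that met the study criteria, and the same change without the 4 arrays low in oocyte markers (diamonds). Of the 3 called changes, Wif1 with GDNF is at 0.52 with and without them, whereas Nkd2 with FGF2 has 0.45 and Wnt4 with LIF has 0.59 without them.

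With CTGF, none of the 51 genes met either rule in the unpaired fit, and their changes lay between -0.25 and 0.29. The sample numbers pair in that set, and with the replicate block 0 were called and 1 gene met the study criteria, Wif1, at 0.29 (SE 0.10, limma adjusted p = 0.422 with the block, adjusted p = 1 without it). Of the 51 genes Wif1 had the largest change in this set, higher in CTGF ovaries in each of the 3 pairs of samples, and its change was 0.14 without CTGF sample 2. Of the receptors and co-receptors, 12 of 13 had a positive change with CTGF, with a median of 0.09, and 58.1% of all probe sets above the median level also did (median 0.02).

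The rest of the pathway was read from a list of 54 further components, of which 45 were measured, and a list of 22 known target genes, of which 18 were measured. In the LIF comparison, where 0.267% of all probe sets were called, 1 of 45 components and 1 of 18 targets rose, and in the other 8 comparisons 0 of either list was called in either direction. Tnfrsf19, a receptor of the TNF family and a target of beta-catenin, had 7.99, 7.47 and 7.01 in LIF ovaries and 6.08 to 7.09 (median 6.53) in controls. LIF samples 1 and 2 were above every control, and the change was 0.92 (SE 0.17, limma adjusted p = 0.00698). Without the 4 arrays low in oocyte markers it was 0.71 (adjusted p = 0.17), without LIF sample 1 it was 0.67 (adjusted p = 0.496), and without LIF sample 2 the adjusted p was 0.0719. Amer1, which binds Apc and takes part in beta-catenin degradation, had 7.82, 8.20 and 7.66, against 7.25 to 7.71 (median 7.51), a change of 0.40 (SE 0.09, limma adjusted p = 0.0444) that had an adjusted p of 0.166 without the 4 arrays and missed the threshold without LIF sample 1 or 2 and when any 1 of controls 3, 4, 6, 7, 8, 12, 13 or 14 was left out. Median changes of the component list lay between -0.075 with GDNF and 0.07 with KITLG, and those of the target list between -0.04 with BMP4 and 0.05 with GDNF and PDGFab.

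The feedback genes Axin2, Nkd1, Notum, Lgr5 and Lef1 were compared with each other across the 14 control samples, where no growth factor sets the relation. Of their 10 pairs, 8 had a Pearson correlation past the adjusted threshold by permutation. The closest were Notum with Lef1 (r = 0.823, p = 0.00043, adjusted p = 0.00215, Spearman rho = 0.78, p = 0.00149), Axin2 with Lef1 (r = 0.82, p = 0.00033, adjusted p = 0.00215, rho = 0.816, p = 0.00057), Nkd1 with Lef1 (r = 0.753, adjusted p = 0.0071, rho = 0.582) and Notum with Lgr5 (r = 0.735, adjusted p = 0.00777, rho = 0.776). Axin2 with Lgr5 (r = 0.179, adjusted p = 0.539) and Lgr5 with Lef1 (r = 0.475, adjusted p = 0.0945) did not pass. By Spearman's rho 3 of the 10 pairs passed. Controls 12 to 14 were low in several of these genes, and among controls 1 to 11 the Pearson correlation passed for 2 pairs, Axin2 with Lef1 (r = 0.772, adjusted p = 0.0434) and Notum with Lgr5 (r = 0.737, adjusted p = 0.0434). Without the 2 arrays farthest from the median of the first gene, Axin2 with Lef1 (r = 0.836, adjusted p = 0.0051) and Axin2 with Nkd1 (r = 0.809, adjusted p = 0.0114) passed. Notum with Lef1 then had r = 0.647 (adjusted p = 0.0614), Notum with Lgr5 had r = 0.581 (adjusted p = 0.0941) and Lgr5 with Lef1 had r = 0.646 (adjusted p = 0.0614), while Nkd1 with Lef1 had r = 0.411 (adjusted p = 0.263) and Nkd1 with Notum and with Lgr5 had r = 0.217 and 0.239, against 0.661 and 0.564 over all 14. Control 2 was the lowest control in Axin2, Lef1 and Nkd1, at 6.62, 8.23 and 8.18, and also in Axin1 (7.24, against 8.06 to 8.53 in the other 13 controls). The same array was the lowest control in Fzd1, Fzd2, Fzd5, Fzd6, Lrp5, Tcf7, Nkd2 and Ror2. How often other gene pairs correlate as closely in these controls was not tested. The counts of pairs can therefore not be read as particular to the feedback genes.

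**Figure D5:**
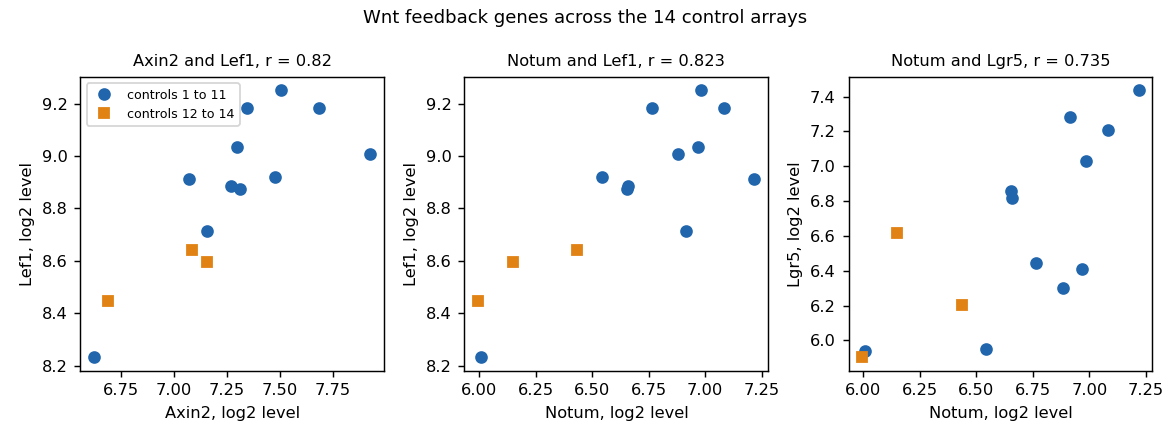
Log2 levels of Axin2 against Lef1, Notum against Lef1 and Notum against Lgr5 on the 14 control arrays, each point 1 array, with Pearson's r over all 14. Controls 12 to 14 (squares) lie toward the lower end of Notum.

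The promoters of Axin2, Nkd1 and Lef1 are shown because these feedback genes were compared with each other in the controls. Notum and Lgr5 had no entry in the promoter table used here. TCF and LEF factors bind a core with the letters CTTTGA, and it was searched on both strands in the 250 bases before the annotated start of 27457 genes (RefSeq, GRCr8). Of the 51 genes, 35 matched the promoter table, and 4 of these held the core (Axin2, Dkk1, Nkd1 and Wnt8a), which is 11.4%, against 13.8% of all promoters. Axin2, at chr10:94398535-94398784 (+ strand), held 2 matches, Nkd1, at chr19:34722847-34723096 (- strand), held 1, and Lef1, at chr2:222340463-222340712 (+ strand), held 0. The core is in capitals, and each sequence is written 5′ to 3′ on the strand of its gene.
Axin2: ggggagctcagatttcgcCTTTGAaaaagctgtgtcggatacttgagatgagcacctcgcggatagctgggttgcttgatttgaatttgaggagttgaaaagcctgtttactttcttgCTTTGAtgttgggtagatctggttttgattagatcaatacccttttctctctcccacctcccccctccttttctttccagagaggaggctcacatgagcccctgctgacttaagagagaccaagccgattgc
Nkd1: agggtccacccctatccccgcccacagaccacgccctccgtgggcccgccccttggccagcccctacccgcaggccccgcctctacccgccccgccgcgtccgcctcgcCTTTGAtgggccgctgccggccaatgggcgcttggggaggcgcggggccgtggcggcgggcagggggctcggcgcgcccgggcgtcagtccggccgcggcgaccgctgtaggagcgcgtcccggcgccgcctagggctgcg
Lef1: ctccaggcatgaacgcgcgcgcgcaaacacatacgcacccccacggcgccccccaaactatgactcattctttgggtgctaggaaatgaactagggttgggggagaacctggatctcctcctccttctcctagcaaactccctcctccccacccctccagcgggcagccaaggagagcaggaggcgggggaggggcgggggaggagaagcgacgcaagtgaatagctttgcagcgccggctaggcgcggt
Counted from the annotated start, the Axin2 matches begin at -232 and -132 and the Nkd1 match at -141. A match of letters is a description of the sequence and not a measured binding site.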

How the data were processed

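The 44 arrays were 38 of the growth factor set (8 growth factors with 3 samples each and 14 controls) and 6 of the CTGF set (3 samples each). The deposited values are log2 expression levels, which the authors made from the scans in Partek by RMA with an adjustment for probe GC content, separately for the 2 sets. They were used as deposited, every comparison stayed within 1 set, and no array was left out. The results text of the study states 2 samples for GDNF where the labels give 3, and all 3 were used. The small number of arrays sets the precision. Of the probe sets, 15097 had a single gene symbol in the annotation, 323 had several and 11922 had none. All 51 genes were matched by gene number, and no probe set with a single symbol stood for Tcf7l2 here.

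Each growth factor was tested against the controls of its set in limma 3.58.1 (functions lmFit and eBayes, R 4.3.3), with the 38 arrays of the larger set in a single fit, with Benjamini-Hochberg adjustment over all 27342 probe sets at 0.05. Exact two-sided permutation tests used all 680 splits of 3 against 14 or 20 of 3 against 3. Growth factors were compared with each other within the same fit. Tests of correlation were two-sided with permutation. Tables and figures were made with Python 3.11.15, and the steps were tested on simulated data.

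The genes and lists were chosen with earlier results of these data known. By rule, the genes named were those past the adjusted threshold, in each comparison the 3 with the lowest unadjusted p among those at the study criteria, 6 genes that the study's tables list (Wnt2b, Ror2, Dkk3, Lgr5, Fzd1 and Axin2), the brightest and dimmest of each family, and called genes of the pathway and target lists. The tables also hold the probe sets of Notum and Tcf7l1 under older names. The study chose these 8 genes on these arrays, so they are not independent evidence. Marker lists came from general knowledge, and those for endothelium (6 of 8 measured) and fallopian epithelium (4 of 6 measured) had 0 genes called with FGF2 or LIF. Of the 4 fallopian epithelial genes, 3 were higher at the study criteria with AMH and 2 with FGF7, with 0 called in either comparison.

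Sample numbers were checked from deviations from the group means. In the CTGF set same-numbered samples went together (r = 0.842, 0.623 and 0.647) and pair. In the growth factor set they do not pair by that check. Treated samples there share a number with controls 1 to 3 alone, so under the replicate block they are compared with only those controls. Alternatives were a fit of each growth factor with the controls alone, the replicate block, array weights, a robust variance prior with a trend, a second quantile normalization, centring on the array median, leaving out dim probe sets, other probe sets of a gene, the methods' t-test, and leaving out samples.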

Additional observations from a re-analysis of the deposited data

How the results depend on the processing

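The 21 changes at the study criteria, 3 of them called, were recomputed under the alternatives. So were Wif1 with CTGF and the called changes of Tnfrsf19 and Amer1 with LIF. All 631 values kept their sign. Of these, 579 stayed on the same side of the adjusted threshold, 38 no longer passed it and 14 passed it anew. A change not called in the main fit stayed on its side by failing again. The 38 losses were all among Wnt4, Tnfrsf19 and Amer1 with LIF, Wif1 with GDNF and Nkd2 with FGF2. The cause of a difference between settings was not tested, except that leaving out the probe sets dimmer than the median one removed Wif1. The 3 arrays per growth factor limit what small changes can be seen.

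At the adjusted threshold, the number of genes called with FGF2 (1) was 0 in a fit of the FGF2 arrays and controls alone, 0 by the methods' t-test, 0 without the 4 arrays low in oocyte markers, and 2 with the replicate block, with array weights, with arrays centred on their median, without the dimmer probe sets and with controls 1 to 11. With GDNF (1) it was 0 in the fit alone, 0 by the t-test, 0 without the dimmer probe sets, 2 with a variance trend, 4 with the replicate block, 9 with array weights and 4 with controls 1 to 11. With LIF (1) it was 0 in the fit alone, with the replicate block, by the t-test and without the 4 arrays. With FGF7 (0) it was 1 with the replicate block and 2 with array weights. Leaving out single samples gave 0 to 2 calls with FGF2 (0 without FGF2 sample 1, 2 without FGF2 sample 2, control 6 or control 14), 0 to 4 with GDNF (0 without GDNF sample 1 or 2, 2 without control 2, 4 without control 12) and 0 to 1 with LIF (0 without LIF sample 1 or 2).

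Changes under the replicate block in the growth factor set rest on controls 1 to 3 and leave the other controls out of the comparison. Control 1, the highest control in Wnt2b (9.24), is among them. Under the replicate block the 2 genes called with FGF2 were Dkk3 (0.77, adjusted p = 0.0203) and Wnt2b (-1.66, adjusted p = 0.017), and Nkd2 was not called (0.66, adjusted p = 0.14). Wnt4 with LIF had 0.86 (adjusted p = 0.155) and Lgr5 with FGF2 -0.22 (adjusted p = 0.731) under the block, while Wif1 with GDNF was called (0.64, adjusted p = 0.0024). Dkk3 with FGF2 was also called with centred arrays, without the dimmer probe sets, with controls 1 to 11 and without control 6 or 14, at 0.60 to 0.66.

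The number of genes at the study criteria moved more. With AMH (1) it was 2 in the fit alone, 4 with the replicate block, 2 with array weights, 2 without the 4 arrays and 5 with controls 1 to 11, and 0 to 6 on leaving out single samples (0 without AMH sample 1, 6 without AMH sample 2, 4 without control 2, 2 without AMH sample 3, control 6, 12 or 14). With BMP4 (1) it was 0 in the fit alone, by the t-test and without the 4 arrays, 2 with the replicate block, and 0 to 1 on leaving out single samples (0 without any BMP4 sample or control 1, 3, 7, 9, 10 or 11). With FGF7 (2) it was 4 with the replicate block, 5 with array weights, 0 by the t-test, 4 with controls 1 to 11 and 0 to 3 without single samples (0 without FGF7 sample 1 or 3, control 7 or 10, and 1 without control 3, 4, 8, 9 or 11). With GDNF (3) it was 5 with array weights and 1 to 3 without single samples (1 without GDNF sample 3). With KITLG (1) it was 0 by the t-test, 0 without the 4 arrays, 2 with other probe sets of a gene counted and 0 to 3 without single samples (0 without KITLG sample 1, 3 without KITLG sample 3, 2 without control 1). With PDGFab (3) it was 5 with array weights and 0 to 4 without single samples (0 without PDGFab sample 1 or 3). With CTGF (0) it was 1 with the replicate block, 1 with array weights and 0 to 1 without single samples (1 without CTGF sample 1 or 3). The counts with FGF2 and LIF stayed within 1.5 times.

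The 6 differences between growth factors became 3 without the 4 arrays, 3 without the dimmer probe sets, and 0 to 8 without replicate 1, 2 or 3 of each growth factor (0 without replicate 1, 2 without replicate 2). Of the 10 correlations in controls, the 8 past the threshold became 2 among controls 1 to 11 and 2 without the 2 farthest arrays, and Axin2 with Lgr5 changed sign among controls 1 to 11 (r = -0.0721). In the growth factor set treated samples share a number with controls 1 to 3 alone. FGF2, KITLG and LIF sample 1 resembled control 1 most (r = 0.74, 0.615 and 0.694) and the other 21 treated samples resembled other controls more than the one with their number, so the number does not pair the samples there. Whether FGF2, KITLG and LIF sample 1 share a culture day with control 1 is not given in the labels and was not tested. The settings without the 4 arrays and without single controls were chosen after seeing the data.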

Other observations

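Mmp7, a matrix metalloproteinase on the list of known beta-catenin targets, was chosen after its values were seen. It had 8.54, 8.32 and 7.74 on the log2 scale in AMH ovaries and 5.38 ± 0.93 (SD, n = 14) in controls, whose highest level was 7.34. All 3 AMH samples were above every control. The change was 2.82 (SE 0.65), with a limma adjusted p of 0.31 over all probe sets. In FGF7 ovaries Mmp7 had 7.36, 4.94 and 8.70, so that samples 1 and 3 were above every control and sample 2 lay within the control range (change 1.62, limma adjusted p = 0.509). Summed linear levels of the fallopian epithelial markers (4 of 6 measured) were 394 to 663 with AMH and 248 to 404 in controls. FGF7 samples 1, 2 and 3 had sums of 561, 363 and 618. The median change of the 4 markers was 0.59 with AMH and 0.44 with FGF7, with 0 called. Their part in the change of Mmp7 was not tested.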
